A study of Mus musculus with 38 samples.

Results

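The 34 genes described here encode the hydrolases, activator proteins and membrane proteins of the lysosome other than the cathepsins, together with the transcription factor Tfeb. They were listed by name and matched by Ensembl identifier to the count tables of the hippocampus, where they are 34 of 48709 genes in each of 38 mice. APPPS1ΔE9 mice carry 2 transgenes, one of them for a mutant amyloid precursor protein, both driven by the mouse prion protein promoter, and develop amyloid plaques with age. Their wild-type (WT) littermates carry neither. Anle138b, an oligomer modulator of small molecular weight, was mixed into the chow for several months before analysis, and placebo chow lacked it. The pre-plaque group was analyzed at 6 months of age and held 8 WT and 8 APPPS1ΔE9 mice, of which 4 of each genotype received placebo and 4 anle138b. The post-plaque group was analyzed at 10 months and held 10 WT mice, 5 on each chow, and 12 APPPS1ΔE9 mice, 5 on placebo and 7 on anle138b. The comparison asks which lysosomal genes differ between APPPS1ΔE9 and WT mice, at which age, and whether anle138b changes them.

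Lysosomes are acidic organelles that break down material delivered by endocytosis, phagocytosis and autophagy. Soluble hydrolases cut glycans, lipids and proteins, small activator proteins present lipids to them, and heavily glycosylated membrane proteins line the organelle and export the products. In the brain every cell type has lysosomes, but microglia, which take up amyloid, express several of these genes at high level. The transcription factor Tfeb and its relatives activate lysosomal genes through a short palindromic element in their promoters. Loss of many of these genes causes lysosomal storage disease, for example Tay-Sachs disease for Hexa and Niemann-Pick disease type C for Npc1 and Npc2.

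Total counts were between 15847985 and 31895808 per mouse (median 24530658), and the 34 genes together took 0.376% to 0.465% of them. All 34 passed the filter on low counts in every comparison. App and Prnp, the latter the gene whose promoter drives these transgenes, were higher in every APPPS1ΔE9 mouse than in any WT mouse of the same age. The ratios of their mean CPM (counts scaled to an equal library total, here with TMM factors) were 2.28 and 2.53 in the post-plaque group. For all 4 pre-plaque WT mice on placebo, the genotype label names the transgenic genotype, against their sample titles. These mice were grouped as WT by title, and both genes were at WT levels in them. Of the 38 libraries, 12 had no Y-linked expression, although the methods state male mice: 5 of 8 pre-plaque WT, 6 of 10 post-plaque WT and 1 of 12 post-plaque APPPS1ΔE9 libraries. WT libraries of the post-plaque group were sequenced in lanes 3 and 4 and APPPS1ΔE9 libraries in lanes 5 and 6, so lane and genotype cannot be told apart there. Choroid plexus markers (Ttr, Folr1, Kl, Aqp1 and Slc4a5) summed to between 3917 and 7880 CPM in 10 of 16 pre-plaque libraries and to at most 704 CPM in the other 6. In the post-plaque group the sum exceeded 1000 CPM in a single library, the anle138b-treated APPPS1ΔE9 mouse 99 with 4307 CPM. In tissue RNA, more cells of a type and more RNA per cell cannot be told apart.

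In the post-plaque group, 8 of the 34 lysosomal genes were higher in APPPS1ΔE9 than in WT mice and none was lower. They were the macrophage membrane protein Cd68, the haematopoietic membrane protein Laptm5, the hydrolases Hexa and Gusb, the secreted precursor Grn, the cholesterol carrier Npc2, the tetraspanin Cd63 and the protease Lgmn. Their log2 fold changes ran from 0.22 for Lgmn to 1.22 for Cd68. Across all genes tested, 1.43% were called and 1.32% were called higher (edgeR quasi-likelihood test with a Benjamini-Hochberg adjusted p under 0.1, 12 APPPS1ΔE9 against 10 WT mice, both chows). Of the 34, 31 had a log2 fold change above 0, as did 47.8% of all genes, and 13 were higher at an unadjusted p under 0.05, as were 4.24% of all genes. The median log2 fold change was 0.07 over the 34 genes and -0.0044 over all 17668 genes tested. In 6 of the 34 genes, all but Cd63 and Lgmn of the 8, every APPPS1ΔE9 mouse was above every WT mouse, which held for 0.408% of all genes. The summed level of the 34 genes moved little, from a median of 3906 CPM in WT to 4071 CPM in APPPS1ΔE9 mice, with overlapping ranges.

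**Figure D1:**
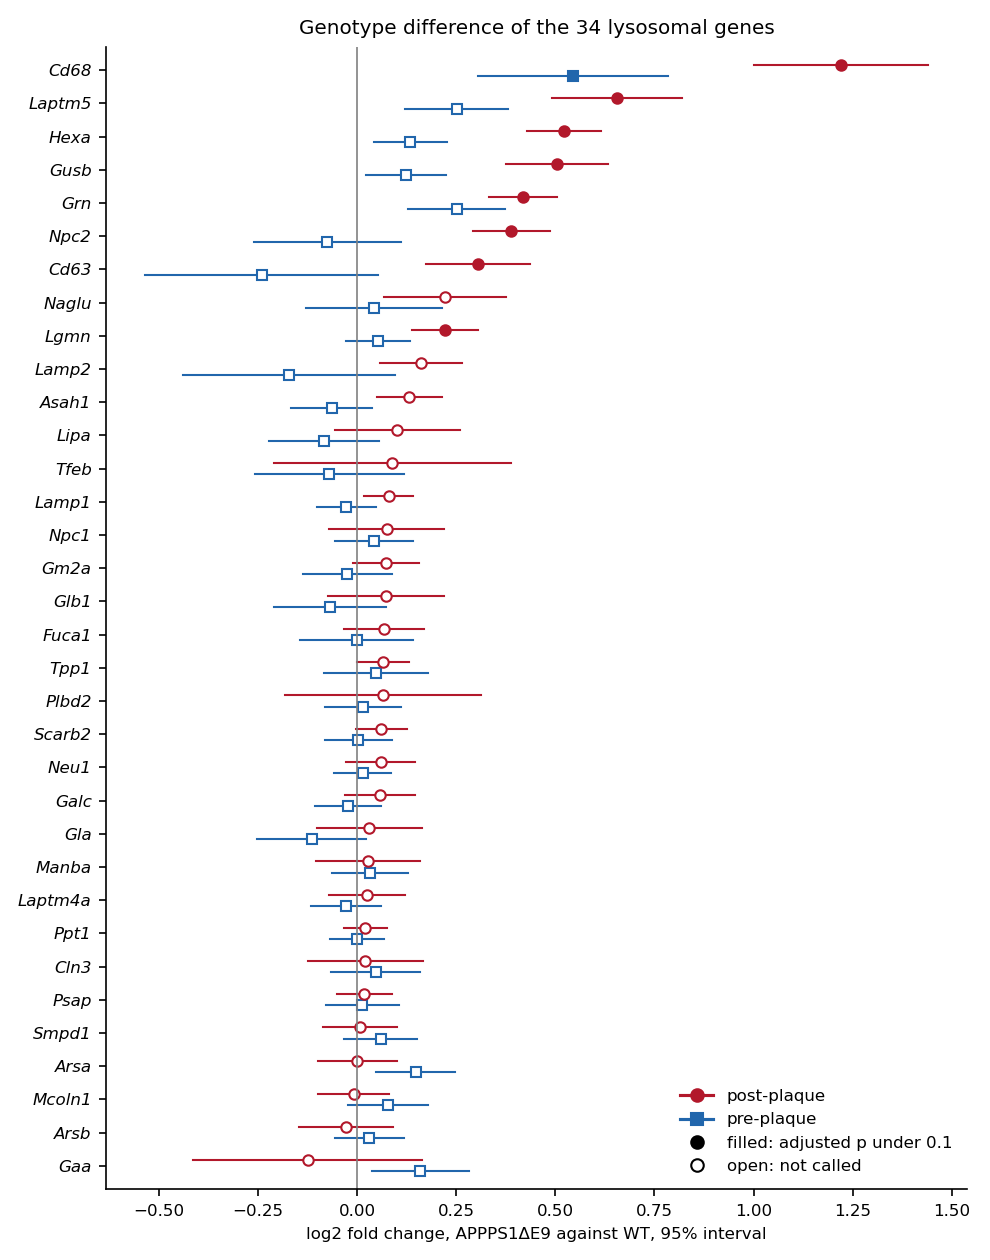
Log2 fold change of APPPS1ΔE9 against WT mice with its 95% interval for each of the 34 genes, in the post-plaque group (circles, 12 against 10 mice) and the pre-plaque group (squares, 8 against 8 mice). Filled symbols passed an adjusted p of 0.1: 8 genes in the post-plaque group and Cd68 alone in the pre-plaque group.

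Among the 12 enzymes that cut glycans, 2 rose. Hexa, the alpha subunit of beta-hexosaminidase, which removes terminal N-acetylhexosamine from GM2 ganglioside, lies on the plus strand at chr9:59539540-59565109. It measured 42.3, 46.2 and 49.4 CPM (lowest, median and highest) in WT and 58.4, 65.1 and 81.1 CPM in APPPS1ΔE9 mice. The ranges do not overlap, and the log2 fold change was 0.52 (SE 0.05, edgeR adjusted p = 2.23e-07). Gusb, beta-glucuronidase (minus strand, chr5:129989011-130003049), went from 14.6, 16.3 and 17.9 CPM to 19.3, 23.6 and 27.7 CPM, again with no overlap. Its log2 fold change was 0.50 (SE 0.06, edgeR adjusted p = 2.56e-05). Of the Hexa exons, 12.8% overlap the gene Tmem202 on the other strand, and the strand setting of the counting is not given in the sources used here.

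The other 10 glycan enzymes were not called. Naglu, alpha-N-acetylglucosaminidase of heparan sulfate breakdown, had the largest difference of them, with a log2 fold change of 0.22 (SE 0.07, edgeR adjusted p = 0.294). Its 95% interval, as a fold, was 1.05 to 1.30. Glb1, the lysosomal beta-galactosidase, had a fold of 1.05 (95% interval 0.950 to 1.16) and Galc, which cleaves the myelin lipid galactosylceramide, 1.04 (0.978 to 1.11). Neu1, the sialidase, stood at 1.04 (0.981 to 1.11) and Fuca1, the fucosidase, at 1.05 (0.977 to 1.12). For Manba, beta-mannosidase, the fold was 1.02 (0.931 to 1.12) and for Gla, the X-linked alpha-galactosidase, 1.02 (0.932 to 1.12). The sulfatases Arsa and Arsb, which act on sulfatide and dermatan sulfate and share 18.8% and 32.3% of their exons with other annotated genes, had folds of 1.0 (0.933 to 1.07) and 0.981 (0.903 to 1.07). Gaa, the acid alpha-glucosidase that degrades glycogen, was the most negative of the 34, at 0.917 (0.750 to 1.12). Gaa ranged from 238 to 527 CPM in APPPS1ΔE9 and from 269 to 477 CPM in WT mice, so its interval is wide.

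None of the 5 lipid enzymes was called. Asah1, acid ceramidase, had a log2 fold change of 0.13 (SE 0.04, edgeR adjusted p = 0.186) with WT values of 45.8, 48.2 and 55.95 CPM and APPPS1ΔE9 values of 50.3, 54.6 and 58.1 CPM. These ranges overlap. Lipa, the acid lipase of cholesteryl esters, had a fold of 1.07 (95% interval 0.962 to 1.196). Smpd1, acid sphingomyelinase, had a fold of 1.01 (0.942 to 1.07), Ppt1, palmitoyl-protein thioesterase, 1.01 (0.977 to 1.05), and the phospholipase-like Plbd2 1.05 (0.881 to 1.24). Of the 2 proteases, Lgmn, an asparaginyl endopeptidase (minus strand, chr12:102394084-102439813), rose from 80.8, 90.7 and 97.2 CPM to 92.6, 105 and 115 CPM. Its log2 fold change was 0.22 (SE 0.04, edgeR adjusted p = 0.00272) and the ranges overlap. Tpp1, tripeptidyl peptidase, was not called, with a fold of 1.05 (95% interval 1.0003 to 1.095).

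Of the 3 activators and secreted precursors, Grn alone was called. Grn encodes progranulin, the precursor of the granulin peptides, and lies on the plus strand at chr11:102430315-102437048. It measured 52.4, 57.6 and 61.9 CPM in WT and 64.6, 78.1 and 84.1 CPM in APPPS1ΔE9 mice, without overlap. The log2 fold change was 0.42 (SE 0.04, edgeR adjusted p = 1.22e-06). Psap, prosaposin, the precursor of the saposins and the gene with the most counts of the 34, had a fold of 1.01 (95% interval 0.965 to 1.06). The GM2 activator Gm2a, the partner of beta-hexosaminidase, had 1.05 (0.992 to 1.11). The pair that moves cholesterol out of the lysosome was also split. Npc2, the soluble carrier (minus strand, chr12:84754562-84773152), rose from 44.5, 48.2 and 55.8 CPM to 58.4, 64.9 and 76.2 CPM. There was no overlap, and the log2 fold change was 0.39 (SE 0.05, edgeR adjusted p = 1.83e-05). Npc1, the membrane transporter, had a fold of 1.05 (95% interval 0.953 to 1.16).

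Among the 9 membrane proteins, 3 were called. Cd68, the macrosialin of microglia and macrophages (minus strand, chr11:69664213-69666153), showed the largest change of the 34. It measured 7.36, 8.84 and 11.8 CPM in WT and 14.1, 21.7 and 26.6 CPM in APPPS1ΔE9 mice. The log2 fold change was 1.22 (SE 0.11, edgeR adjusted p = 2.23e-07). Laptm5, a lysosomal membrane protein of haematopoietic cells (plus strand, chr4:130913125-130936141), went from 33.1, 36.8 and 44.2 CPM to 46.5, 61.6 and 72.6 CPM. Its log2 fold change was 0.65 (SE 0.08, edgeR adjusted p = 2.05e-05), and neither gene overlapped between genotypes. Cd63, a tetraspanin of late endosomes and exosomes (plus strand, chr10:128900989-128912822), rose from 18.3, 22 and 27.5 CPM to 22.2, 27.3 and 31.7 CPM, with overlap. The log2 fold change was 0.30 (SE 0.06, edgeR adjusted p = 0.00986). A processed copy, Cd63-ps, is annotated, so reads could be split between them.

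The remaining 6 membrane proteins were not called. Lamp1, the major glycoprotein of the lysosomal membrane, had a fold of 1.06 (95% interval 1.01 to 1.103). Lamp2, its X-linked relative, had 1.12 (1.04 to 1.202, edgeR adjusted p = 0.210). Scarb2, the receptor that carries glucocerebrosidase to the lysosome, had 1.04 (0.997 to 1.09) and Laptm4a, a widely expressed relative of Laptm5, 1.02 (0.952 to 1.09). The calcium channel Mcoln1 had 0.994 (0.934 to 1.06) and Cln3, the protein of juvenile Batten disease, 1.01 (0.917 to 1.12). Tfeb itself, the lowest of the 34 per transcript length, had a fold of 1.06 with a wide interval of 0.864 to 1.31. Over the 26 genes that were not called, the 95% interval lay between a 1.2-fold decrease and a 1.2-fold increase for 21. The exceptions were Gaa, Naglu, Plbd2, Lamp2 and Tfeb. For 5 genes, Naglu, Asah1, Tpp1, Lamp1 and Lamp2, the interval lay above 1 although the adjusted p missed the threshold.

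**Figure D2:**
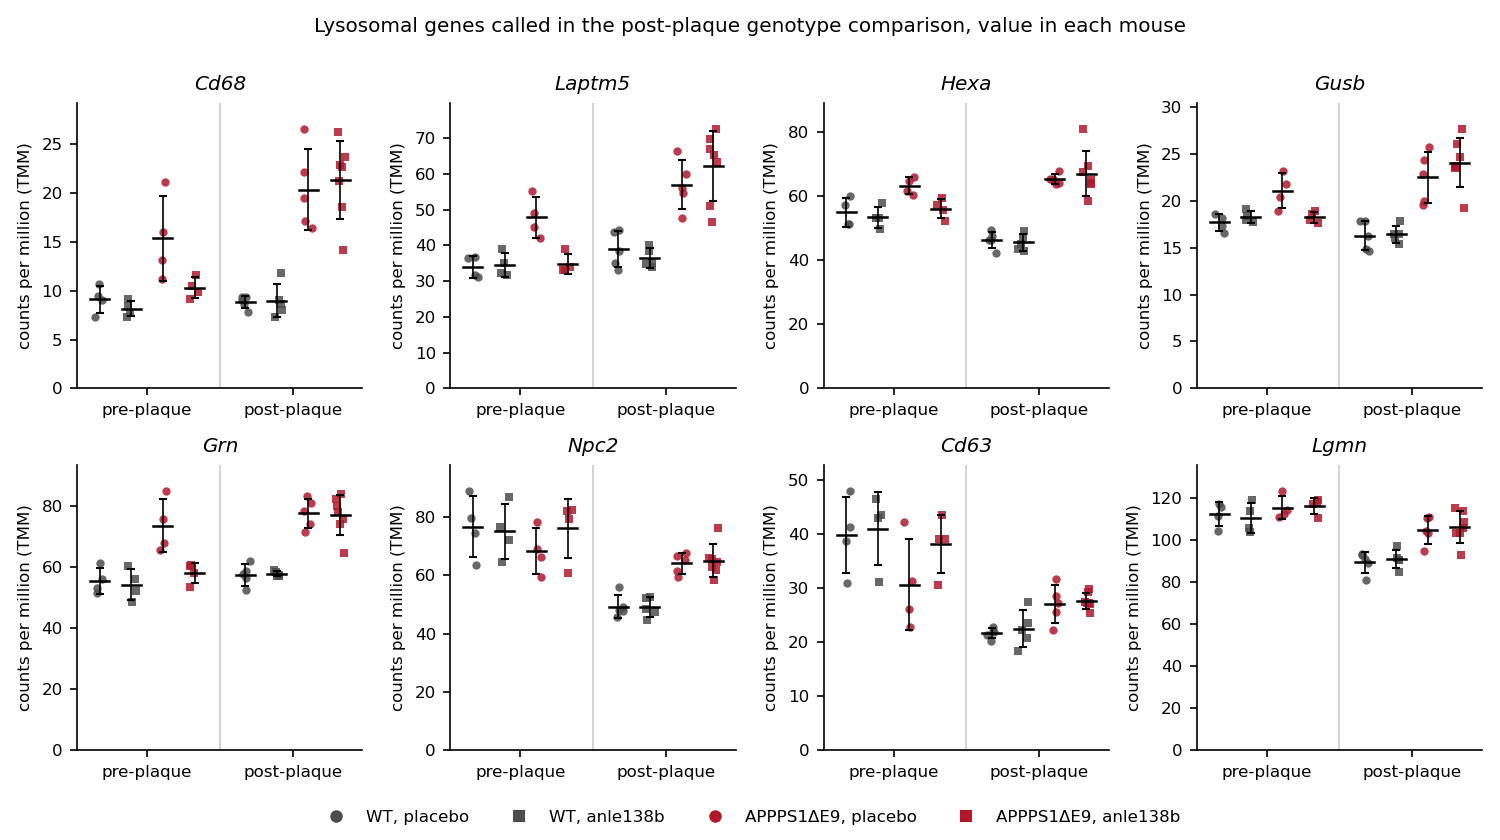
CPM in each mouse for the 8 genes called in the post-plaque genotype comparison, by group, with the mean and SD in black. On the post-plaque side of each panel the APPPS1ΔE9 mice lie above the WT mice, without overlap for all but Cd63 and Lgmn. On the pre-plaque side the placebo-treated APPPS1ΔE9 mice are the highest group for Cd68, Laptm5, Grn, Hexa and Gusb.

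Per kilobase of the principal transcript, the 34 genes spanned from 2.81 CPM per kb for Tfeb to 578 CPM per kb for Psap in post-plaque WT mice. The next levels were those of Laptm4a with 123, Lamp1 with 111 and Gaa with 98.3 CPM per kb. The genes that rose were not those with the highest levels. Lgmn had 45.3, Grn 24.6, Hexa 23.03 and Cd63 19.9 CPM per kb in WT mice, followed by Npc2 with 14.9, Laptm5 with 14.5, Cd68 with 7.24 and Gusb with 6.08. In APPPS1ΔE9 mice Hexa stood at 33.2, Laptm5 at 23.1 and Cd68 at 17.02 CPM per kb.

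Promoter sequences were searched for 3 short elements in the genes that rose and in those that were not called. RefSeq (GRCm38.p6) gave windows of 300 bases, 250 before and 50 after a start, for 31 of the 34 genes. Asah1, Plbd2 and Npc1 are not among them. The element CACGTG, its own reverse complement and the core bound by Tfeb and its relatives, was found in 9 of the 31, against 8.09% of all 27025 genes with a window. All 9 also held the longer TCACGTG on either strand, a form that contains CACGTG and is found in 4.29% of all genes. Of the 9, 8 were genes that were not called, namely Lamp1, Mcoln1, Gla, Cln3, Arsa, Gaa, Glb1 and Naglu, of 23 with a window. The remaining gene, Lgmn, was the only holder among the 8 genes that rose, and its window lies at an inner start of the gene rather than the first one. GAGGAAG, a core bound by PU.1 and related factors and searched on both strands, was in 3 of the 8 genes that rose (Laptm5, Gusb and Cd63), in 4 of the other 23, and in 15.4% of all genes. The Cd63 window (chr10:128909095-128909394) likewise lies at an inner start of the gene. These matches describe letters in a window and no binding was measured. The sequences below are shown 5′ to 3′ on the gene's strand for Hexa, which rose and holds none of these elements, Laptm5, which rose and holds GAGGAAG on the other strand, Lgmn, and Lamp1, which was not called and holds TCACGTG at 4 places. Capitals mark the matches.
Hexa (chr9:59539290-59539589, plus strand): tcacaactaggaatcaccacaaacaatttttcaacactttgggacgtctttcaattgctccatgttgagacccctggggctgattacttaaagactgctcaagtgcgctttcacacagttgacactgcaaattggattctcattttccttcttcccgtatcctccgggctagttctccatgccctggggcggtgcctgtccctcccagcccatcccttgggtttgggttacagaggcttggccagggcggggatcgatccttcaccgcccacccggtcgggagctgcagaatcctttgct
Laptm5 (chr4:130913066-130913365, plus strand): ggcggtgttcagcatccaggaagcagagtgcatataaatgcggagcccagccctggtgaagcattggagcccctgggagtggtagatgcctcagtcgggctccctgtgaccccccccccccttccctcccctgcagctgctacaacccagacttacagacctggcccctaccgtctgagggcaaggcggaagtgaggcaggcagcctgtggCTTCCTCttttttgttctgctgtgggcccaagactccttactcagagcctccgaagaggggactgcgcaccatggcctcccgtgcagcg
Lgmn (chr12:102439043-102439342, minus strand): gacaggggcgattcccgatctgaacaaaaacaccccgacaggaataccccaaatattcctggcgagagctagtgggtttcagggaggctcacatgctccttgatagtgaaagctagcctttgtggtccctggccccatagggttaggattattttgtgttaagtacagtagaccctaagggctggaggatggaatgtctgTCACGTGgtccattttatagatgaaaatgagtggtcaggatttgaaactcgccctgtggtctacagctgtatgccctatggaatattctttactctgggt
Lamp1 (chr8:13158911-13159210, plus strand): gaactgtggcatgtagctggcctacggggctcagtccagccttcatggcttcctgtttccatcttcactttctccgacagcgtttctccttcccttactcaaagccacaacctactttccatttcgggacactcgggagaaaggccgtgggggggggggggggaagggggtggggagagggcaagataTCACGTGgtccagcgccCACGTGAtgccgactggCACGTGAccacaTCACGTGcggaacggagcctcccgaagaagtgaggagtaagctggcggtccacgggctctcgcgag

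Lysosomal genes outside these 34 were also divided between genes that rose and genes that were not called. Of 42 other lysosomal genes tested, 6 were called and all were higher. Slc11a1, a metal transporter of phagosomes, had a log2 fold change of 0.94 (SE 0.09) and Man2b1, the lysosomal alpha-mannosidase, 0.33 (SE 0.05). None of 18 tested subunits of the V-ATPase proton pump, 10 genes of the mannose 6-phosphate sorting route and 16 tested genes of the Tfeb family and its nutrient sensors was called. Their median log2 fold changes were 0.0040, 0.0087 and 0.04. The filter on low counts left 1 gene of each of 3 lists untested, Plbd1, Tfec and the V-ATPase subunit Atp6v0d2, named here after their values were seen. Atp6v0d2 had at most 0.0391 CPM in any post-plaque WT and at most 0.175 CPM in any post-plaque APPPS1ΔE9 mouse, and 9 of these 12 APPPS1ΔE9 mice lay above the highest WT mouse. Of the 13 cathepsins, 9 were higher.

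**Figure D3:**
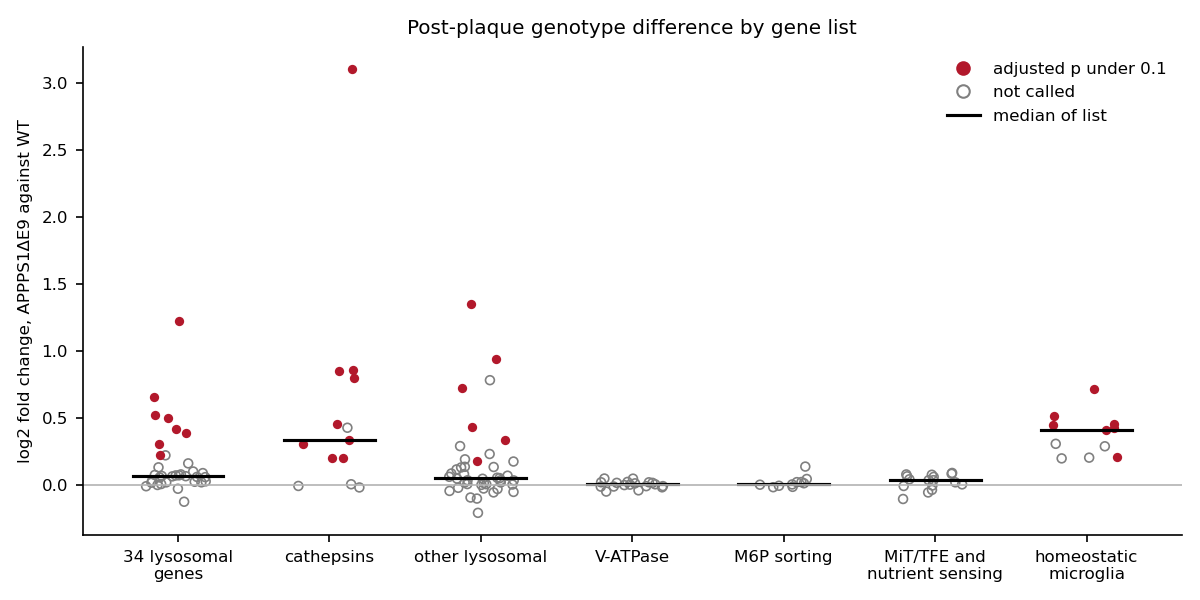
Log2 fold change of APPPS1ΔE9 against WT in the post-plaque group for each gene of 7 lists, with genes past an adjusted p of 0.1 in red and the median as a bar. Called genes appear in the 34 lysosomal genes (8), the cathepsins (9), the other lysosomal genes (6) and the homeostatic microglia markers (7), and none in the V-ATPase, sorting and nutrient-sensing lists.

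Microglia markers moved with these genes. Of 11 homeostatic markers, 7 were called higher, with a median log2 fold change of 0.41, and their sum ranged from 297 to 379 CPM in WT and from 369 to 551 CPM in APPPS1ΔE9 mice. Csf1r, the receptor that microglia need to survive, had a log2 fold change of 0.43 (SE 0.08, edgeR adjusted p = 0.00269) and Cx3cr1, the fractalkine receptor, 0.46 (SE 0.07, edgeR adjusted p = 0.000665). Of 8 markers of plaque-associated microglia, 7 were called higher, with a median of 1.62, and Cst7, the cystatin F gene, went from at most 0.463 CPM in any WT mouse to at least 6.70 CPM in any APPPS1ΔE9 mouse. Their sum ranged from 120 to 164 CPM in WT and from 200 to 340 CPM in APPPS1ΔE9 mice. The log2 fold changes of Hexa, Gusb, Grn and Npc2, between 0.39 and 0.52, lay near the median of the homeostatic markers, and that of Cd68 lay above all 11 of them, whose highest was 0.72 for Fcrls. Of the 4 perivascular macrophage markers none was called, and their sum stayed between 4.92 and 19.6 CPM. No neuronal, oligodendrocyte, oligodendrocyte precursor, endothelial or choroid plexus marker was called, and of 7 astrocyte markers only Gfap was, with a log2 fold change of 0.997 (SE 0.19). The part of these cell types in the rise of the 8 genes was not tested.

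Within each chow the same genes led. In placebo-treated post-plaque mice 4 of the 34 were called, against 0.324% of all genes: Hexa, Cd68, Grn and Npc2, with log2 fold changes of 0.49, 1.197, 0.43 and 0.37 (5 against 5 mice). Laptm5 and Gusb had 0.54 and 0.46 (edgeR adjusted p = 0.103 and 0.125). In anle138b-treated mice 6 were called, against 0.723% of all genes: Cd68, Hexa, Laptm5, Grn, Gusb and Npc2, with 1.25, 0.55, 0.77, 0.41, 0.55 and 0.41 (7 against 5 mice). The placebo call of Npc2 was lost without any of 7 of the 10 libraries, with log2 fold changes between 0.35 and 0.37. In that comparison the 5 WT mice held 3 and the 5 APPPS1ΔE9 mice 0 libraries without Y-linked expression. With the Y-linked level as a covariate Hexa and Cd68 were still called, while Grn had 0.42 (edgeR adjusted p = 0.379) and Npc2 0.34 (edgeR adjusted p = 0.834). Over both chows, the libraries with Y-linked expression alone gave 9 calls, with 7 of the 8 genes among them and Lgmn at 0.21 (edgeR adjusted p = 0.152).

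Anle138b moved none of the 34 genes past the threshold in post-plaque mice, where no gene of the whole table was called either. In APPPS1ΔE9 mice (7 anle138b against 5 placebo) no member had an unadjusted edgeR p under 0.05, against 1.48% of all genes. For 24 of the 34 the 95% interval of anle138b against placebo lay between a 1.2-fold decrease and a 1.2-fold increase. It reached 1.32 for Cd68 and 0.653 for Gaa. In post-plaque WT mice (5 against 5) it lay within these bounds for 26 of the 34, and again no member had an unadjusted p under 0.05, against 1.25% of all genes. The interaction of genotype and chow was called for none of the 34, nor did any pass an unadjusted p of 0.05, against 2.3% of all genes. DESeq2 called none of the 34 in these 3 comparisons. Lane largely went with chow in these mice. APPPS1ΔE9 libraries on placebo were in lane 5, and those on anle138b in lane 6 but for mouse 58. WT libraries on placebo were in lane 3 but for mouse 56, and those on anle138b in lane 4.

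In the pre-plaque group Cd68 alone was called between APPPS1ΔE9 and WT mice (8 against 8, both chows), where 0.218% of all genes were. Cd68 ranged from 7.34 to 10.6 CPM in WT and from 9.10 to 21.1 CPM in APPPS1ΔE9 mice, which overlap. Its log2 fold change was 0.54 (SE 0.11, edgeR adjusted p = 0.0888). When single mice were left out in turn the call was lost in 13 of 16 fits, and the log2 fold change ran from 0.45 to 0.61. Within lane 5, the only lane with both genotypes, Cd68 had 0.87 (edgeR adjusted p = 0.469), but its 4 APPPS1ΔE9 mice were all on placebo and its 2 WT mice both on anle138b, so genotype and chow cannot be told apart there. With the Y-linked level as a covariate over all 16 mice Cd68 had 0.63 (edgeR adjusted p = 0.389). Grn had 0.25 (SE 0.06, edgeR adjusted p = 0.138) and Laptm5 0.25 (SE 0.06, edgeR adjusted p = 0.198). Hexa had 0.13, Gusb 0.12, Lgmn 0.05, Npc2 -0.08 and Cd63 -0.24. Of the 8 markers of plaque-associated microglia 5 were called higher here, and of the 11 homeostatic markers none.

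In the pre-plaque group the placebo-treated APPPS1ΔE9 mice held the highest values of several genes. In placebo-treated APPPS1ΔE9 mice Cd68 measured 11.2, 13.1, 16.01 and 21.1 CPM, against 7.35, 8.997, 9.41 and 10.6 CPM in placebo-treated WT mice. Laptm5 measured 42.1, 45.0, 49.1 and 55.1 CPM, against 31.1, 31.6, 36.3 and 36.8 CPM. Grn measured 65.7, 67.9, 75.8 and 84.98 CPM, against 51.5, 53.04, 56.3 and 61.3 CPM. All 3 genes, with Hexa and Gusb, lay above WT without overlap, as did 2.59% of all genes. The margin was narrow for Hexa, whose lowest APPPS1ΔE9 mouse had 60.4 and highest WT mouse 60.2 CPM, and for Gusb, with 18.9 and 18.6 CPM. In anle138b-treated APPPS1ΔE9 mice Cd68 was at 9.10, 9.86, 10.5 and 11.6 CPM, Laptm5 at 33.1, 33.2, 33.98 and 38.9 CPM, and Grn at 53.5, 58.2, 60.2 and 60.7 CPM. Laptm5 and Grn of these mice overlapped with anle138b-treated WT mice, and for Cd68 the lowest APPPS1ΔE9 mouse and the highest WT mouse both had 9.10 CPM.

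None of these differences was called by edgeR. In placebo-treated mice, APPPS1ΔE9 against WT gave log2 fold changes of 0.50 for Laptm5, 0.41 for Grn and 0.76 for Cd68 (edgeR adjusted p = 0.128, 0.228 and 0.343), and 0.0715% of all genes were called. Anle138b against placebo in APPPS1ΔE9 mice gave -0.46 for Laptm5 (SE 0.08), -0.34 for Grn (SE 0.08) and -0.58 for Cd68 (SE 0.18), with edgeR adjusted p = 0.164, 0.247 and 0.312, where 0.0529% of all genes were called. At an unadjusted p under 0.05, 8 of the 34 were lower and 3 higher on anle138b, against 7.63% and 5.5% of all genes. DESeq2 called Laptm5, Grn and Cd68 in both comparisons, genotype on placebo and anle138b in APPPS1ΔE9 mice, where it called 0.468% and 1.32% of all genes. Placebo-treated WT libraries were all in lane 4 and placebo-treated APPPS1ΔE9 libraries all in lane 5, so lane and genotype cannot be told apart there. Of these, WT mice 30, 31 and 77 had no Y-linked expression, and every APPPS1ΔE9 mouse had it. Between genotypes on anle138b, where 0.047% of all genes were called, Laptm5 had 0.01, Grn 0.10 and Cd68 0.34. In pre-plaque WT mice anle138b against placebo gave no call among the 34 and no unadjusted p under 0.05, against 1.85% of all genes, and DESeq2 called none of them. On anle138b against placebo in APPPS1ΔE9 mice Hexa, Grn, Laptm5 and Cln3 lay lower without overlap, as did 3.4% of all genes. The interaction of genotype and chow, the test of the difference itself, gave -0.48 for Laptm5 (SE 0.12), -0.30 for Grn and -0.42 for Cd68, with edgeR adjusted p = 0.516, 0.618 and 0.641. Without the placebo-treated APPPS1ΔE9 mouse 17, the 1 library of its group with high choroid plexus markers (6596 CPM), Laptm5, Cd68 and Grn were called in both comparisons, at 0.55, 0.88 and 0.46 for genotype and -0.51, -0.71 and -0.39 for anle138b. Over both chows the 3 genes were then called at 0.28, 0.61 and 0.28. Without the anle138b-treated APPPS1ΔE9 mouse 84, Laptm5 was called for anle138b at -0.51. Mouse 17 was the lowest of its group for Laptm5, Cd68 and Grn, and mouse 84 the highest of its group for Laptm5. Leaving these mice out therefore widens the differences by itself. With each mouse left out in turn, 0 to 3 of the 34 were called in each of these comparisons. The share of all genes called in the fits without 1 mouse is not given here, so these calls cannot be set against it. The 3 other placebo-treated APPPS1ΔE9 libraries had 60.97 to 704 CPM of these markers, while 3 of 4 in each other pre-plaque group had at least 3917 CPM, and lanes 5 and 6 separate placebo from anle138b in APPPS1ΔE9 mice. With the choroid plexus and oligodendrocyte marker sums as covariates none of the 34 was called, and anle138b against placebo gave -0.35 for Laptm5, -0.25 for Grn and -0.33 for Cd68.

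Part of the spread among pre-plaque mice went with the choroid plexus markers. Within groups, 9 of the 34 genes changed with their sum at an edgeR adjusted p under 0.1, as did 8.96% of all genes. They were Cd63, Lamp2, Npc2, Fuca1, Tpp1, Glb1, Gm2a, Lipa and Smpd1, all in the positive direction. A doubling of the sum went with a log2 change of 0.09 for Cd63 and Lamp2 and 0.07 for Npc2. Cd63 was between 38.6 and 48.0 CPM in the 10 libraries high in these markers and between 22.8 and 31.3 CPM in the other 6. Hexa, Gusb, Grn, Cd68, Laptm5 and Lgmn were not among the 9. Cd68 and Laptm5 had log2 changes of -0.05 and -0.03 for a doubling (edgeR adjusted p = 0.304 and 0.192). Those of Grn and Gusb were also negative, and those of Hexa and Lgmn positive. With both marker sums as covariates the pre-plaque log2 fold change was -0.15 for Cd63, -0.06 for Lamp2 and 0.02 for Npc2.

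**Figure D4:**
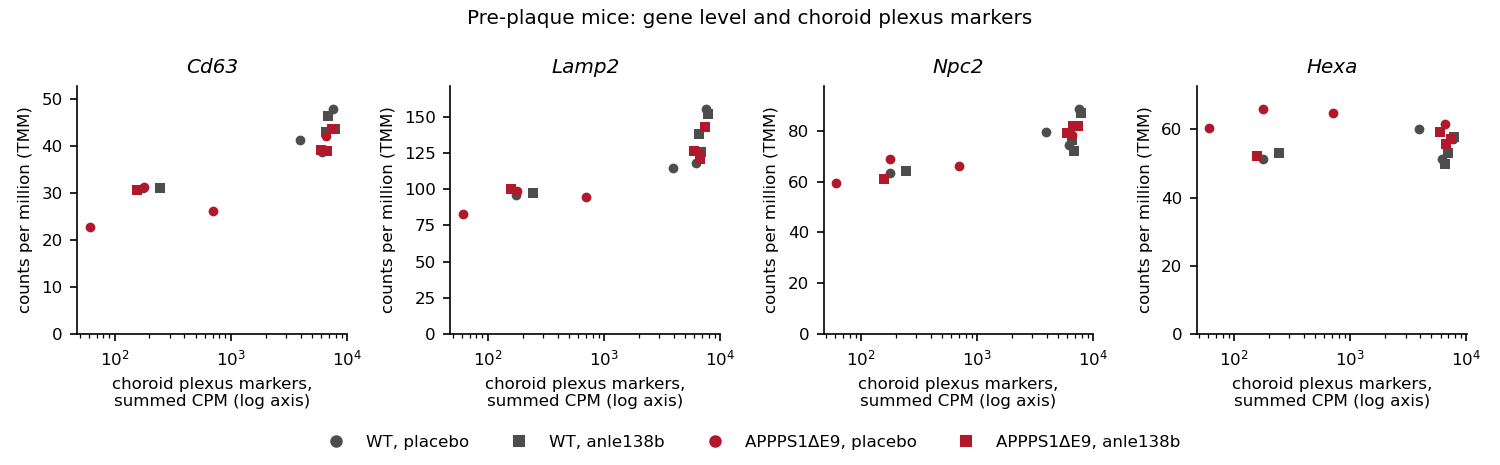
CPM of Cd63, Lamp2, Npc2 and Hexa against the summed choroid plexus markers (log axis) in each of the 16 pre-plaque mice. Cd63, Lamp2 and Npc2 are higher in the 10 libraries with at least 3917 CPM of the markers, in both genotypes, and Hexa is not.

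In the post-plaque group the sum of the oligodendrocyte markers ranged from 2457 to 7749 CPM. Within groups 19 of the 34 genes changed with it, a share near the 53.1% of all genes. A doubling went with a log2 change of -0.58 for Gaa, -0.28 for Glb1 and -0.23 for Lipa, and of 0.50 for Tfeb, 0.48 for Plbd2 and 0.25 for Npc1. Of the 8 genes higher in APPPS1ΔE9 mice, Laptm5 and Hexa were among the 19, with 0.26 and 0.10. Gaa, Tfeb and Plbd2 had the widest intervals in the genotype comparison. With both sums as covariates, the 8 genes were called with log2 fold changes of 0.22 to 1.22 and Asah1 and Lamp2 were called in addition. The share of all genes called in that fit is not given here, so the added calls cannot be set against it.

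The genotype difference was larger at 10 than at 6 months for 3 genes, by a test of that difference over all 38 mice, where 0.176% of all genes were called. The difference of log2 fold changes was 0.39 for Hexa (SE 0.06, edgeR adjusted p = 0.00496), 0.47 for Npc2 (SE 0.09, edgeR adjusted p = 0.0373) and 0.38 for Gusb (SE 0.08, edgeR adjusted p = 0.0587). For Cd68 it was 0.68 (SE 0.16, edgeR adjusted p = 0.1005). Grn, which had 0.42 in the post-plaque and 0.25 in the pre-plaque group, did not pass this test (0.17, edgeR adjusted p = 0.593). Mean Npc2 was lower at 10 than at 6 months in both genotypes, 64.6 against 72.2 CPM in APPPS1ΔE9 and 49.1 against 75.9 CPM in WT mice. Mean Hexa was 66.3 against 59.7 CPM in APPPS1ΔE9 and 46.0 against 54.2 CPM in WT mice. Gusb was likewise higher at 10 months in APPPS1ΔE9 and lower in WT mice. With the marker sums as covariates Npc2 had 0.39 and Hexa 0.37, both called. When single mice were left out in turn the call of Gusb was lost in 9 of 38 fits, at values between 0.35 and 0.38.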

How the data were processed

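Hippocampal poly(A) RNA of 38 mice in 8 groups was sequenced, and the authors aligned reads with STAR to mm10 and counted them per gene with HTSeq. The deposited values are raw counts for 48709 Ensembl genes per mouse, of which 48349 matched the GENCODE annotation of GRCm38 used here for symbols and positions. Total counts of 15847985 to 31895808 per mouse set the precision. Groups came from the labels. No label ties replicate numbers to cages or litters, and p-values measure the spread between mice. Of 75 pairs within groups none agreed within sampling noise.

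Counts were filtered with filterByExpr (minimum count 10, minimum total 15), scaled with TMM and tested with the robust edgeR quasi-likelihood test (edgeR 4.0.16, limma 3.58.1, R 4.3.3), with Benjamini-Hochberg adjustment over all genes and calls at an adjusted p under 0.1. Intervals are 95% intervals of the fitted log2 fold change. Genotype was compared as the mean over both chows in a fit of the 4 group means of an age, within each chow and between ages, and anle138b within each genotype. CPM uses TMM-scaled totals. Alternatives were DESeq2 1.42.0, RLE scaling, no filter, a threshold of 0.05, Y-linked expression, lane, replicate block, all 4 groups of an age in 1 fit, and each mouse left out. The marker sums as covariates and the fits without libraries over 1000 CPM of choroid plexus markers were added after seeing the data. The edgeR test was also run on simulated counts. This covered genotype over both chows at each age, pre-plaque genotype on placebo and genotype between ages. Named genes were the 34 and, from each other list, up to 3 called genes with the smallest adjusted p in the post-plaque genotype comparison. The 34 genes and the lists were chosen with earlier results of these data known. Samples of both Y-linked states were kept. Protein sequences were not used here. Results for some genes are not reported here.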

Additional observations from a re-analysis of the deposited data

Results flagged for a closer look

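Of 272 tests of a gene within a group, 16 had 1 mouse whose distance from its nearest neighbour took most of the range of its group, and chance gives about 1 in 20. The anle138b-treated pre-plaque APPPS1ΔE9 mouse 84, the library of its group with few choroid plexus markers, gave 5 of them. It was lowest for Gm2a (61.3 CPM), Naglu (8.66 CPM), Npc2 (60.9 CPM) and Smpd1 (93.5 CPM) and highest for Laptm5 (38.9 CPM). In the same group mouse 27 was highest for Galc (35.6 CPM). The placebo-treated APPPS1ΔE9 mouse 17, the library of its group with many choroid plexus markers, was highest for Tpp1 (108.98 CPM). Among pre-plaque WT mice, mouse 30 was lowest for Ppt1 (121 CPM) and Scarb2 (152 CPM) on placebo, and mouse 33 highest for Neu1 (61.9 CPM) on anle138b. In post-plaque placebo-treated APPPS1ΔE9 mice, mouse 57 was highest for Arsa (44.9 CPM) and Psap (1704 CPM), mouse 100 highest for Galc (40.0 CPM) and mouse 86 lowest for Ppt1 (114 CPM). The placebo-treated WT mouse 55 was highest for Psap (1646 CPM). The anle138b-treated APPPS1ΔE9 mouse 93, the 1 library of the 12 post-plaque APPPS1ΔE9 libraries without Y-linked expression, was highest for Npc2 (76.2 CPM).

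The genotype effect differed between the ages, by the test of the difference itself, for Hexa (0.39 on the log2 scale, post-plaque minus pre-plaque), Npc2 (0.47) and Gusb (0.38). The ages also differed in choroid plexus markers and partly in lanes, with lane 3 used at 10 months only. The part of lanes and markers in these differences was not tested beyond the covariate fit given above. Titles of both ages repeat the same sample numbers within a lane and no label names the sequencing run, so run and age cannot be told apart.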

How the results depend on the processing

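Replicate numbers were not treated as pairs: same-number correlations of deviations ran from -0.787 to 0.779 and no comparison had all pairs above 0.1. The mean correlation of a comparison ran from -0.382 (anle138b in post-plaque APPPS1ΔE9 mice) to 0.452 (anle138b in post-plaque WT mice). A noisy pairing would also miss this rule, so the rule cannot show that pairing is absent. With the replicate block the number of the 34 genes called was 2 in place of 1 for pre-plaque genotype (Laptm5 and Grn, with Cd68 at an edgeR adjusted p of 0.107), 2 in place of 4 for post-plaque genotype on placebo, 1 in place of 6 on anle138b, and 1 in place of 0 for anle138b in pre-plaque APPPS1ΔE9 mice. For post-plaque genotype over both chows it was 8 with and without the block. The single pre-plaque call became 0 with a threshold of 0.05, no filter, the Y-linked covariate, Y-linked libraries only, lane as a term, lane 5 only, the marker covariates, or without libraries high in choroid plexus markers, and 3 with DESeq2. DESeq2 also called 3 for pre-plaque genotype on placebo, 3 for anle138b in pre-plaque APPPS1ΔE9 mice and 5 for genotype between ages. Without a filter the first 2 of these became 2 and 2, and a fit of all 4 groups gave 2 for the first. The marker covariates gave 6 between ages. The call of Gusb between ages was lost with a threshold of 0.05, without a filter (edgeR adjusted p = 0.123) and with the replicate block (edgeR adjusted p = 0.192). The share of all genes that DESeq2 called between ages is not given here. For post-plaque genotype on placebo the Y-linked covariate gave 2 and Y-linked libraries only 0. In post-plaque WT mice with Y-linked expression (2 against 2), anle138b against placebo called 8 of the 34 and 5550 genes in all, against 0. The comparison with all WT mice tested 16986 genes, so these calls were spread over the whole table and were not particular to the 34. Leaving out 1 mouse gave 0 to 3 for pre-plaque genotype, 0 to 3 on placebo, 0 to 3 for anle138b in pre-plaque APPPS1ΔE9 mice, 8 to 10, 3 to 5 and 6 to 7 for post-plaque genotype over both chows, on placebo and on anle138b, and 2 to 5 between ages. The highest of these came without the anle138b-treated post-plaque APPPS1ΔE9 mouse 97. The causes were not tested. No gene called in the reported fits changed direction under an alternative, and of these calls 560 stayed and 58 were lost, each counted once per alternative. Each fit without 1 mouse counts as an alternative here, and such a fit shares all its mice with the reported fit. Genes that were not called did change sign in places.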
